A study of Rattus norvegicus with 6 samples.

Results

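The genes of megalin- and cubilin-mediated protein uptake were followed in the renal cortex of male rats of the Crl:CD(SD) Sprague-Dawley strain, bought at 5 weeks of age. The 9 genes Lrp2, Cubn, Amn, Dab2, Lrpap1, Clcn5, Ocrl, Folr1 and Rab11a were taken by name, as all probes whose array accession belongs to that rat RefSeq gene. They made up 9 of the 15284 named genes on the array and 16 of its 61657 probes. The o-anisidine group held 3 rats given o-anisidine hydrochloride, an aromatic amine salt, at 700 mg/kg/day for 4 weeks, and the group labelled VC held 3 rats given water for the same time. No other treatment or allele is named for either group. Each rat was measured on 1 single-colour Agilent array, and the design describes the 3 samples of a group as biological replicates.

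Proximal tubule cells recover filtered proteins, vitamins and carriers from the primary urine by receptor-mediated endocytosis. Megalin, the product of Lrp2, is a large membrane receptor, and cubilin is a peripheral receptor that amnionless, the product of Amn, carries to the cell surface and anchors there. The adaptor Dab2 links the tail of megalin to the clathrin coat, the chaperone encoded by Lrpap1 keeps megalin from binding ligand in the endoplasmic reticulum, and the recycling GTPase Rab11a marks the compartment from which receptors return to the brush border. Clcn5 encodes a chloride-proton exchanger of endosomes and Ocrl an inositol polyphosphate phosphatase, and in humans loss of either gives urinary loss of small proteins.

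The receptor unit of megalin, cubilin and amnionless is encoded by genes on different chromosomes. The 250 bases before the RefSeq start of these genes (GRCr8) are shown because the 3 products act together while their probes differed in how the groups lay. Capitals mark the GC box GGGCGG and the core of the xenobiotic response element TNGCGTG, to which the aryl hydrocarbon receptor binds, each searched on both strands, and no overlapping match of these motifs was found.
Lrp2, chr3:74754536-74754785, minus strand: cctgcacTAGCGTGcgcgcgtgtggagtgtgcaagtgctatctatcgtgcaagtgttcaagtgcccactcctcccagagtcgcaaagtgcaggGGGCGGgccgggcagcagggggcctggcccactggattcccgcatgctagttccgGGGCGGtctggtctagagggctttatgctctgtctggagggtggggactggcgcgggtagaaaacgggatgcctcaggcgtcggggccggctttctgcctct
Cubn, chr17:81501695-81501944, minus strand: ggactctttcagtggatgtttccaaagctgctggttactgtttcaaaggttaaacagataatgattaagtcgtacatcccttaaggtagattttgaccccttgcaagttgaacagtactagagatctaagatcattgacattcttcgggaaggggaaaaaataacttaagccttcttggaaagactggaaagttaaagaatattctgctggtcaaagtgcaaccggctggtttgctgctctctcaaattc
Amn, chr6:136132317-136132566, plus strand: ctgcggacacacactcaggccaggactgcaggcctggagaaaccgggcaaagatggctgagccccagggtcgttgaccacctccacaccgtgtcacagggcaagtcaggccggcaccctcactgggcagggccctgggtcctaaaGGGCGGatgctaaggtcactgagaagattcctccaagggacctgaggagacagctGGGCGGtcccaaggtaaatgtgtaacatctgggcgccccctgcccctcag
Lrp2 held 2 GC boxes and 1 xenobiotic core, with that core 243 to 237 bases before the start. Amn held 2 GC boxes and no core, and Cubn held neither. Of 33469 rat promoter windows of this length, 30.5% held a GC box and 4.09% the xenobiotic core. The half-site of hepatocyte nuclear factor 1, GTTAAT, was in none of these 3 windows and in 6.45% of all windows. Of the other members, Rab11a held 2 GC boxes, Lrpap1 4 and Dab2 0, and Clcn5 held 1 in 1 of its windows and 0 in the other. None of these windows held the xenobiotic core or the half-site. GC boxes thus also lay before genes whose groups overlapped on their brightest probe, and a link between these motifs and the log2 changes was not tested. No window was available for Folr1 and Ocrl, which are named only.

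The o-anisidine arrays had 41670 to 42766 probes well above background and the VC arrays 43075 to 43630, with 0 saturated spots on any array. The 75th percentile of processed signal was 923 to 963 on the o-anisidine arrays and 986 to 1031 on the VC arrays. Both measures were lower on every o-anisidine array than on any VC array, and their part in the log2 changes was not tested. Slide 1 carried o-anisidine 3 and all VC arrays, and slide 2 carried o-anisidine 1 and 2. Values below are log2 of the processed signal relative to the array's 75th percentile, so that 0 is that percentile, and they do not rank genes, because probes differ in brightness. The sum over 23 proximal tubule marker genes, in multiples of the 75th percentile, was 3520 to 4010 on the o-anisidine arrays and 3491 to 3787 on the VC arrays, and none of the 23 was below background on all arrays of a group. Since whole cortex was measured, fewer cells of a type and less RNA per cell cannot be told apart.

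The measured differences of the megalin and cubilin uptake genes between o-anisidine and VC were small. None of the 9 passed the threshold of an adjusted p of 0.05 (limma with Benjamini-Hochberg adjustment over 31087 genes, two-sided), where 0.0611% of all genes passed (0.0354% higher and 0.0257% lower). At an unadjusted p of 0.05 there was 1 member, Amn, on the lower side, which is 11.1% of the members, against 11.5% of all genes (6.36% higher and 5.14% lower). The log2 changes ran from -0.27 to 0.078, with 4 members above 0 and 5 below and a median of -0.011. The median was 0.0037 over all genes and -0.0091 over the 12015 of them that have a symbol, as the members do. The median absolute log2 change was 0.078 for the members and 0.11 for all genes. No member differed by a log2 value of 0.5 or more, whereas 6.41% of all genes had a difference above 0.5.

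On its brightest probe, megalin RNA was slightly lower on every o-anisidine array than on any VC array. Lrp2 had log2 signals of 6.35, 6.47 and 6.13 on the o-anisidine arrays, against 6.52, 6.55 and 6.48 on the VC arrays. The groups did not overlap, but the gap between them, from 6.47 to 6.48, was far smaller than the range of 0.34 within the o-anisidine group. The log2 change was -0.20 (SE 0.10, limma adjusted p = 0.514), which is 0.871-fold with a 95% interval of 0.733 to 1.04 for this gene alone. A second Lrp2 probe read 5.59, 5.75 and 5.73 after o-anisidine and 5.80, 5.71 and 5.86 in VC, so that there the groups overlapped, with a log2 change of -0.11 (SE 0.08).

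Cubilin RNA did not separate the groups. Cubn read 5.30, 5.70 and 5.32 on the o-anisidine arrays, against 5.34, 5.48 and 5.42 on the VC arrays. o-Anisidine 2 was above and the other treated arrays below all VC arrays, and the SD was 0.22 in the o-anisidine group and 0.072 in VC (n = 3 each). The log2 change was 0.024 (SE 0.13, adjusted p = 0.958 by limma), with an interval for the fold of 0.822 to 1.26.

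Amnionless had the largest log2 change and the smallest unadjusted limma p of the 9 genes in the fit without slide as a block. With slide as a block, Lrp2 was farther from 0 (-0.38, against -0.33 for Amn). Amn read 5.47, 5.47 and 5.38 on the o-anisidine arrays, against 5.66, 5.69 and 5.78 on the VC arrays. All treated values lay below all VC values, and each group was tight, with SDs of 0.052 and 0.063 in o-anisidine and VC (n = 3 each). The log2 change was -0.27 (SE 0.07), or 0.831-fold with a 95% interval of 0.736 to 0.939, and the unadjusted limma p was 0.00994. It did not pass the adjustment over all genes (adjusted p = 0.282, and 0.0831 to 0.493 over 17 alternative settings). Amn is covered by 1 probe, so no other probe could be set beside it. On the brightest probe of each gene, 2 of 9 members, Lrp2 and Amn, had groups without overlap, both lower. Of all genes, 18.4% had no overlap in either direction (9.55% higher and 8.88% lower).

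**Figure D1:**
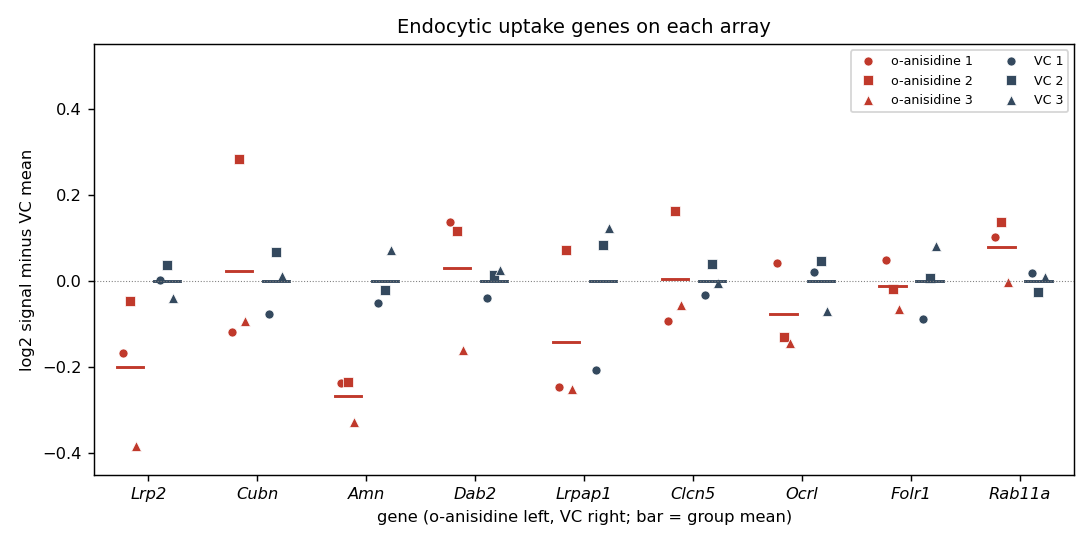
Log2 signal of the brightest probe of each uptake gene on each array, as the difference from the VC mean of that gene; o-anisidine arrays are left and VC arrays right, marker shapes give the replicate and bars the group means. Amn and Lrp2 are the genes whose treated values all lie below the VC values, and every o-anisidine 3 point is below 0.

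The adaptor and the chaperone of the receptors showed no difference beyond the spread of their arrays. Dab2 read 4.58, 4.56 and 4.29 on the o-anisidine arrays, against 4.41, 4.46 and 4.47 on the VC arrays, with treated values on both sides of VC (log2 change 0.031, SE 0.10, adjusted p = 0.928 by limma). Its other probe gave 0.15 (SE 0.12), again with o-anisidine 3 lowest of all 6 arrays. Lrpap1, measured by 1 probe, read 5.10, 5.41 and 5.09 on the o-anisidine arrays, against 5.13, 5.43 and 5.46 on the VC arrays. VC 1 lay near the low treated arrays and o-anisidine 2 near the high VC arrays, so that the range within each group, 0.32 and 0.33 in o-anisidine and VC, exceeded the log2 change of -0.14 (SE 0.14, adjusted p = 0.724 by limma).

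Folr1 encodes the folate receptor of the brush border, which is anchored to the membrane by a lipid and carries folate into the cell. It was the member with the narrowest o-anisidine group after Amn. Folr1 read 6.30, 6.24 and 6.19 on the o-anisidine arrays, against 6.16, 6.26 and 6.34 on the VC arrays, and all treated values fell inside the VC range. The log2 change was -0.011 (SE 0.08, adjusted p = 0.968 by limma), with an interval for the fold of 0.870 to 1.13, and the second probe gave 0.0017 (SE 0.07).

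The genes of the endosome itself had overlapping groups. Clcn5 read 1.45, 1.70 and 1.48 on the o-anisidine arrays, against 1.51, 1.58 and 1.53 on the VC arrays, with a log2 change of 0.0043 (SE 0.09, limma adjusted p = 0.990). o-Anisidine 2 was the highest and the other treated arrays the lowest of the 6. Its other probe gave 0.10 (SE 0.09).

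Ocrl read -1.35, -1.53 and -1.54 on the o-anisidine arrays, against -1.37, -1.35 and -1.46 on the VC arrays, with a log2 change of -0.078 (SE 0.08, limma adjusted p = 0.755). The groups overlapped through o-anisidine 1. A dimmer Ocrl probe was well above background on 1 of 3 o-anisidine arrays and 3 of 3 VC arrays, and its log2 change of -0.26 had an SE of 0.33, so it adds little. Rab11a read 4.50, 4.53 and 4.39 on the o-anisidine arrays, against 4.41, 4.37 and 4.40 on the VC arrays, with a log2 change of 0.078 (SE 0.07, limma adjusted p = 0.704).

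Rab11a is covered by 3 probes, which share a target and are not replicates. The second gave 3.62, 3.60 and 3.61 on the o-anisidine arrays, against 3.49, 3.50 and 3.55 on the VC arrays, a difference of 0.098 (SE 0.06) with no overlap. The third, with a log2 change of -0.0013 (SE 0.08), overlapped. Of the 16 probes of the members, all passed the filter on dim probes, and 0 were called when every kept probe was tested (limma, adjusted over 42036 probes, of which 0.069% were called).

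**Figure D2:**
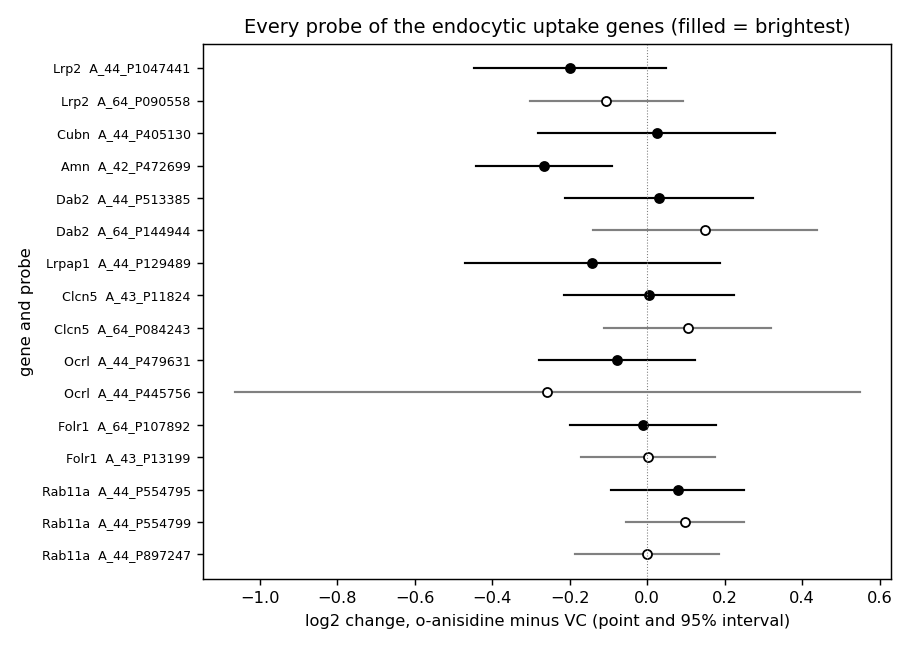
Log2 change, o-anisidine minus VC, with its 95% limma interval for each of the 16 probes of the 9 genes; filled points are the brightest probe of a gene. The Amn interval, -0.44 to -0.092 in the fit of every probe, is the only one that leaves out 0, and the dim Ocrl probe has the widest interval.

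For most members the arrays of the treated rats differed from each other more than those of the VC rats. The SD was larger in o-anisidine than in VC for 7 of the 9 genes, against 55.4% of all genes, and the exceptions were Amn and Folr1. On o-anisidine 3, the treated array that shared the slide of the VC arrays, all 9 members lay below their VC mean, with differences from -0.38 to -0.0026 on the log2 scale, and 54.5% of all genes did. On o-anisidine 1 and 2, 5 and 4 members lay below it. Within that slide the median log2 change of the members was -0.15, and that of all genes -0.021. The same within-slide values, which a fit with slide as a block gives too, were -0.38 for Lrp2 (limma adjusted p = 0.336 with the block and 0.371 within the slide), -0.33 for Amn (limma adjusted p = 0.381 and 0.458) and -0.092 for Cubn (limma adjusted p = 0.912 and 0.857). These values rest on 1 treated array. Its spread is taken from the VC arrays within the slide, and with the block also from o-anisidine 1 and 2. The slide and the differences between treated animals cannot be told apart.

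The genes with a symbol that followed Lrp2 most closely over the 6 arrays were Kcnk3, Ankrd49 and Riiad1, with root mean square differences of the centred log2 values of 0.022, 0.025 and 0.031 among 12006 genes compared. Those nearest to Cubn were Fam151a, Mrpl45 and Limk2, at 0.039, 0.040 and 0.045. These are descriptions over 6 arrays of genes that moved little.

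No gene of the wider uptake route was called. The 8 lists cover the route from receptor and coat to lysosome and the handling of reabsorbed ligands, and they include the 9 members. Of their 183 genes, 168 were tested, all of them well above background on all 6 arrays. Of these, 0 passed the threshold in either direction (limma, adjusted over all genes). At an unadjusted p of 0.05 there were 9 higher and 10 lower genes, together 11.3%, against 11.5% of all genes. Without the members, 9 of 159 were higher and 9 lower. The median log2 change of the 168 was -0.011.

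Among 20 receptors and adaptors, 9 log2 changes were above 0 and 11 below, with a median of -0.0079. Fcgrt, the neonatal Fc receptor that returns albumin and IgG from endosomes, had -0.20 (SE 0.08, unadjusted p = 0.036 by limma). Lrp1, a sister receptor of megalin, had -0.35 with a wider error (SE 0.17, adjusted p = 0.492 by limma). In the other direction, Scarb1 had 0.42 (SE 0.20, adjusted p = 0.479 by limma) and Stra6 0.30 (SE 0.12, adjusted p = 0.433 by limma).

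The clathrin coat list had 10 of 25 log2 changes above 0 and a median of -0.020. Its members stayed within -0.29 and 0.20, among them the clathrin heavy chain Cltc at 0.025 and Ap2m1, a subunit of the adaptor complex at the plasma membrane, at 0.037. Synj1, a phosphoinositide phosphatase that helps shed the coat, read 2.36, 2.40 and 2.37 on the o-anisidine arrays, against 2.66, 2.77 and 2.57 on the VC arrays. The groups did not overlap (log2 change -0.29, SE 0.08, adjusted p = 0.283 by limma), and all 4 of its probes had a log2 change between -0.34 and -0.20.

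Early endosome genes had 8 of 21 above 0 with a median of -0.023, and Stam, a sorting protein for ubiquitylated cargo, had 0.23 (SE 0.09, adjusted p = 0.426 by limma). In the recycling endosome list 11 of 18 were above 0, with a median of 0.027. The smallest p there belonged to Rab11fip2, a Rab11 effector, at -0.26 (SE 0.11, adjusted p = 0.443 by limma), opposite in sign to Rab11a, and -0.069 with normexp background correction. Phosphoinositide enzymes had 7 of 14 above 0 with a median of 0.010. Inpp4a, a phosphatase of that list, had 0.16 (SE 0.07, adjusted p = 0.460 by limma) on its brighter probe and -0.51 (SE 0.16) on its other probe, so its direction depends on the probe.

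The endosomal acidification and chloride list holds proton pump subunits, chloride exchangers, Ostm1, Slc9a3 and Slc9a8. It had 14 of 22 above 0, with a median of 0.035. Atp6v1f, a pump subunit, had the largest log2 change, 0.22 (SE 0.09, adjusted p = 0.434 by limma). With normexp background correction it was 0.095. The relatives of Clcn5 read -0.069 for Clcn3, -0.15 for Clcn4 and -0.11 for Clcn7, and none of the 3 passed. Lysosomal and late endosomal genes had 10 of 29 above 0 and a median of -0.052. Rab9a, a GTPase of the late endosome, had 0.32 (SE 0.10, adjusted p = 0.357 by limma) and the protease gene Ctsh -0.23 (SE 0.08, adjusted p = 0.375 by limma), both without overlap of the groups. With slide as a block or within slide 1 the value of Rab9a was 0.15.

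**Figure D3:**
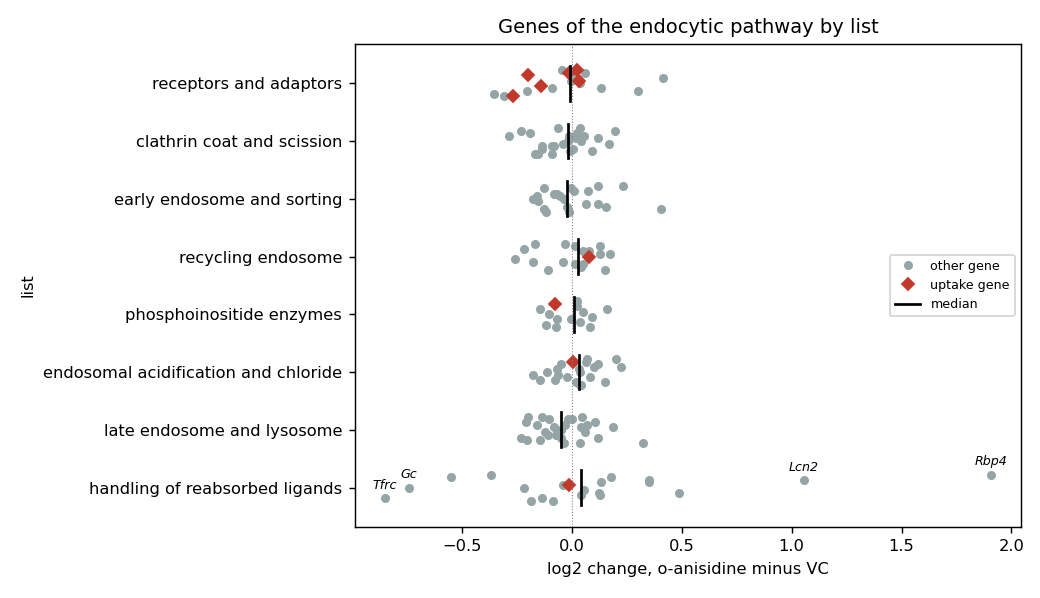
Log2 change, o-anisidine minus VC, for tested genes of the 8 lists, with red diamonds for the uptake genes, grey points for the others and black bars for list medians. The list medians lie between -0.052 and 0.041, and genes with an absolute log2 change above 0.7 carry their name, of which Gc (log2 change -0.74, SE 1.11) varied widely between arrays.

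The widest changes belonged to genes that handle what is taken up. In this list of 21 tested genes the median was 0.041. At an unadjusted p of 0.05 by limma, 4 were higher and 4 lower, together 38.1% of the list. Of all genes 11.5% were (6.36% higher and 5.14% lower), and 0 of the list passed after adjustment. The list was chosen with earlier results of these data known, so its share cannot be read as an enrichment. Rbp4 encodes retinol-binding protein, a plasma carrier that is filtered and recovered by megalin. It read 2.65, 1.57 and 2.72 on the o-anisidine arrays, against 0.65, 0.071 and 0.50 on the VC arrays. Every treated array exceeded every VC array, with a log2 change of 1.91 (SE 0.34, 3.75-fold, adjusted p = 0.136 by limma, and 0.0576 to 0.345 over the alternatives), and a second probe gave 1.92 (SE 0.33).

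Slc46a1, the proton-coupled folate transporter, had a log2 change of -0.55 (SE 0.12, limma adjusted p = 0.177), while the reduced folate carrier Slc19a1 had 0.041 (SE 0.07). Tcn2, the carrier of vitamin B12 that megalin takes up, had -0.22 (SE 0.08, adjusted p = 0.377 by limma) and Abcd4, which passes the vitamin out of lysosomes, -0.19 (SE 0.08, adjusted p = 0.432 by limma). Vdr, the vitamin D receptor, had 0.35 (SE 0.08, adjusted p = 0.223 by limma), and the groups did not overlap. Mt1, a metallothionein, also had 0.35 (SE 0.08, adjusted p = 0.212 by limma).

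Tfrc, the transferrin receptor, read 1.22, 1.61 and 0.60 on the o-anisidine arrays, against 1.79, 2.11 and 2.08 on the VC arrays. Its log2 change was -0.85 (SE 0.26, adjusted p = 0.329 by limma), and its 3 probes gave -0.74 to -0.85. It was -1.39 with slide as a block or within slide 1. Lcn2, a secreted carrier that is also a marker of tubule injury, had 1.06 (SE 0.32, adjusted p = 0.328 by limma).

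Some markers of other cells, of dividing cells and of stressed tubules differed between the groups in the same samples. Which cells gave the signals of division and stress cannot be told from whole cortex. The summed signal of 10 erythroid genes was 1502 to 1866 on the o-anisidine arrays and 732 to 1009 on the VC arrays, and 10 of 10 genes had log2 changes above 0. Of these, 4 were called higher by limma, where 0.0354% of all genes were. The sum of 10 genes of dividing cells was 7.26 to 12.1 and 3.22 to 4.23 in o-anisidine and VC, and that of 13 genes of stressed tubules 65.1 to 156 and 52.6 to 57.1. Of the 12 stressed tubule genes tested, 10 had log2 changes above 0 and 2 below, and 0 were called (limma; 4 higher and 1 lower at an unadjusted p of 0.05). Spp1, which encodes osteopontin, read 6.39, 3.16 and 5.16 on the o-anisidine arrays, against 3.15, 3.03 and 3.07 on the VC arrays, so that o-anisidine 1 and 3 stood far above and o-anisidine 2 beside VC 1. Krt19, a keratin gene, had the largest log2 change of that list, 2.88 (SE 0.34, adjusted p = 0.0894 by limma). Clu, the clusterin gene, had 1.31 (SE 0.26), while the adhesion molecule gene Vcam1 had -0.56 (SE 0.16). The groups did not overlap for Krt19, Clu or Vcam1. Havcr1 had 2.25 (SE 1.23). It read 0.46, -4.39 and -3.02 on the o-anisidine arrays, against -4.85, -3.61 and -5.23 on the VC arrays. Collecting duct markers summed to 188 to 262 on the o-anisidine arrays and 290 to 299 on the VC arrays. Of these 10 genes, 9 had log2 changes below 0 and 1 above. At an unadjusted p of 0.05, 50% of them were lower, against 5.14% of all genes, and 0 were called (limma). The sums of the other 7 lists overlapped between groups, those of the podocyte genes barely, at 39.9 to 49.9 on the o-anisidine arrays and 49.5 to 52.8 on the VC arrays. The 10 podocyte genes all had log2 changes below 0, and 0 of them reached an unadjusted p of 0.05 (limma). The part of these cell types and states in the values of Amn, Lrp2, Rbp4, Tfrc and Lcn2 was not tested. Among the proximal tubule markers 1 gene was higher and 1 lower at an unadjusted p of 0.05, Slc22a12 with a log2 change of 0.59 and Hnf4a with -0.71, and 0 of 23 passed the adjustment by limma.

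**Figure D4:**
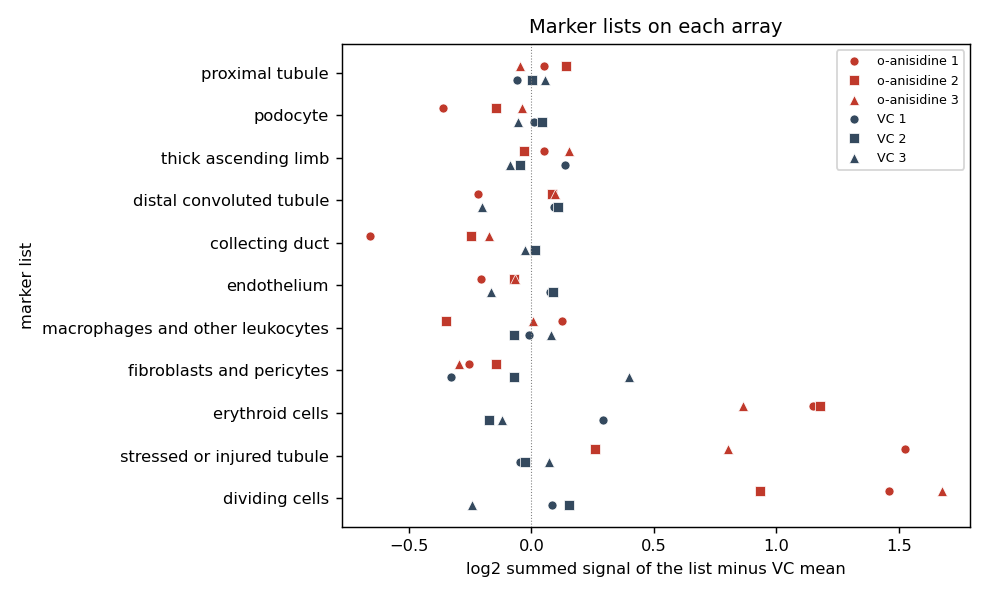
Summed signal of each marker list on each array, as log2 relative to the VC mean of that list, with o-anisidine arrays in red above VC arrays in dark blue. The proximal tubule sums of the groups overlap around 0, and the erythroid, dividing cell and stressed tubule sums are higher on all 3 o-anisidine arrays.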

How the data were processed

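The data were single-colour arrays of renal cortex RNA from 6 rats, grouped by the sample titles into 3 o-anisidine and 3 VC samples. Per the file headers, the deposited intensity values come from Agilent Feature Extraction 10.7.1.1 (10.7 per the submitters' processing notes), as its processed signal; the array design was annotated on rn4. The 0 or 1 flags for background, saturation and outliers are, per the file headers, those of the same software. The authors' deposited table of scaled intensity equals the processed signal over the array's 75th percentile. Column by column it equalled a differently numbered scanner file from within the group, so which replicate numbers are right is unknown; those of the scanner files are used.

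Of 61657 probes, 16 with an outlier flag were left out, as were those that failed, in both groups, to be well above background on every array, which kept 42036. Accessions were matched to RefSeq symbols (GRCr8) for 27460 probes, and 34197 kept the array's identifier. The brightest kept probe stood for its gene, for 31087 genes. Groups were compared with limma 3.58.1 in R 4.3.3, with Benjamini-Hochberg adjustment; the script was tested on simulated data. Intervals are those of the moderated test. The number of arrays limits the precision. Members and lists were chosen with earlier results of these data known. Besides the members, the genes named were, per list, the largest rise and fall at an unadjusted p of 0.05 or else the smallest p; the others were chosen after their values were seen. Results of 2 genes that this rule names are not reported here. Alternatives covered scaling, background, filter, probe choice, slide, variance model, the authors' table, replicate block and left-out replicates.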

Additional observations from a re-analysis of the deposited data

How the results depend on the processing

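The 9 uptake genes and the 168 pathway genes, which include them, gave 0 calls in each of the 17 alternatives. Lrp2, Amn, Lrpap1 and Ocrl kept a log2 change below 0 in all of them. Members near 0 changed sign: with quantile normalization Cubn was at -0.0089, Dab2 at -0.0026 and Clcn5 at -0.0066, with normexp background correction Dab2 at -0.029 and Clcn5 at -0.031, and with slide as a block or on the arrays of slide 1 only Cubn was at -0.092, Dab2 at -0.16, Clcn5 at -0.056 and Rab11a at -0.0026, while the median of the members was -0.15. Lrpap1 was then at -0.25 and Ocrl at -0.15, and Ocrl was at -0.17 with the mean of its probes. Without o-anisidine 3 Tfrc was at -0.58. With 1 replicate left out the ranges were -0.11 to 0.096 for Cubn, -0.022 to 0.13 for Dab2, -0.075 to 0.053 for Clcn5, -0.056 to 0.030 for Folr1, -0.075 to 0.015 for the median of the members, -0.25 to -0.080 for Lrpap1, -0.14 to -0.044 for Ocrl, and -0.27 to -0.11 for Lrp2, whose value nearest 0 came without o-anisidine 3. The sign turned without o-anisidine 2 or VC 1 for Cubn and Clcn5, without o-anisidine 1 or 2 for Dab2, and without o-anisidine 3 or VC 3 for Folr1. Lrpap1 lay farthest from 0 without o-anisidine 2 or VC 1 and nearest without o-anisidine 1 or 3 or VC 3, and Ocrl farthest without o-anisidine 1 and nearest without o-anisidine 2 or 3. Inpp4a was at -0.18 with the mean of its probes, which disagree.

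Over all genes, 11 were higher and 8 lower. Counts were 44 and 16 with normexp, 91 and 29 with a variance trend and robust estimation, 2 and 1 with slide as a block, and 1 and 1 on slide 1. With no filter on dim probes 5 were higher, and with probes well above background on all 6 arrays 5 were lower. With 1 replicate left out they ran from 2 to 16 higher and 1 to 5 lower. With the replicate number as a block 1 was higher and 0 lower. The deviations of same-numbered arrays from their group means correlated at 0.020, 0.077 and 0.012, and those of differently numbered arrays at -0.049 to 0.029. Deviations within a group sum to 0, so these correlations cannot show whether the numbers pair the samples. The cause of the shifts in the counts was not tested. With 3 arrays a group, a change whose interval holds 0 could not be told from 0. Some genes whose interval left out 0, among them Amn, Rbp4 and Krt19, were also not called after adjustment over all genes.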
